A study of Mus musculus with 14 samples.

Results

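Erythroid genes, the genes that developing red blood cells use to make hemoglobin, heme and the red cell membrane, were followed in spleens and ovaries of mice that lack *Zfp36l2*. The set held 41 genes listed by name: 5 genes for globins and their chaperone, 11 for heme synthesis and mitochondrial carriers, 8 for the membrane skeleton and its anchors, 7 for blood group antigens and other surface proteins, 7 late erythroid regulators and enzymes, and 3 early genes (*Car1*, *Epor* and *Tfrc*). Of these, 40 had an identifier among the 49315 genes of the spleen count table and 39 passed the filter on low counts. In the ovary table of 18603 genes, 35 were found and tested. *Ahsp*, the α-hemoglobin chaperone, was not analysed here. *Icam4*, a Landsteiner-Wiener blood group gene (chr9:21029373-21030595, plus strand, GRCm38), was listed at 0 counts in every spleen. All of its exon bases lie antisense to exons of *Gm47079*. Of 35 protein-coding genes wholly antisense to exons of another gene, 31 (88.6%) were at 0 in all 8 spleens. Among protein-coding genes with no shared exon base it was 13.3%. Whether the spleens express *Icam4* cannot be told from this 0, and its cause was not tested.

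Poly(A) RNA was sequenced from 8 spleens, 4 wild type and 4 L2-fKO, and from 6 ovaries, 3 of each genotype, with 1 library per tissue of an animal. L2-fKO animals (*Zfp36l2* -/-;CMV-Cre, written L2-cKO in the labels) had lost the loxP-flanked exon 2 of both *Zfp36l2* alleles in all tissues, since the CMV promoter drives Cre from early embryogenesis on. Wild-type littermates had 2 intact copies of *Zfp36l2* and carried the same Tg.CMV-Cre transgene. No treatment was given, and the labels do not give ages. By the study, the spleens were from pups in the first days after birth, in age-matched pairs. The ovaries were from age-matched animals. The main tests here did not use the pairs. The study describes L2-fKO animals as anemic and pancytopenic, with fewer cells of the erythropoietic lineage in the red pulp by histology. By the labels 2 wild-type and 3 L2-fKO spleens were from males and the other spleens and every ovary from females. L2-fKO spleen 3 and L2-fKO ovary 1 came from the same animal. The labels call the spleen source an organoid, and it is taken here as the spleen of the study. *Zfp36l2* itself was at 101 to 171 CPM (counts per 1e6 counts of the library, scaled by TMM factors) in wild-type spleens and 6.42 to 9.37 in L2-fKO spleens, and at 4745 to 4906 against 758 to 1011 normalized counts in the ovaries.

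In the erythroid lineage, committed progenitors respond to erythropoietin through its receptor, take up iron through the transferrin receptor, and then load themselves with globin and heme while a spectrin-based skeleton is built under the membrane. Heme is made in steps that begin and end in the mitochondrion, from *Alas2*, the erythroid first enzyme, to *Fech*, which inserts the iron. In young mice the spleen is itself a site of red cell production, whereas the ovary is not. ZFP36L2 binds AU-rich elements in 3′UTRs and promotes decay of the mRNA.

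UAUUUAU, an AU-rich element bound by ZFP36L2 in gel shifts of the study, was chosen for a sequence search. The search covered the sense strand of every gene's longest 3′UTR in the annotation used (GENCODE M21, GRCm38). The element occurred in 6 of the 39 tested members, 15.4%, and in 29.5% of the 14227 tested genes with an annotated 3′UTR. The 6 members were *Fech* (1 copy), *Slc25a37* (1), *Add2* (1), *Epb41* (3), *Tfrc* (2) and *Tmcc2* (5, some of which overlap). A single site of each of 5 genes is shown 5′ to 3′ with the element in capitals, since this is the element that the protein bound.
*Slc25a37*, 3′UTR position 2748 of 2986: uauuuaacuuUAUUUAUggauaauuau
*Add2*, 3′UTR position 5420 of 5628: auaauauauaUAUUUAUggguugguuu
*Epb41*, 3′UTR position 2528 of 6872: caaccauguuUAUUUAUugcuggcuga
*Tmcc2*, 3′UTR position 716 of 1191: cguugaguucUAUUUAUuuauuuacuu
*Tfrc*, 3′UTR position 812 of 2458: ggcacugagaUAUUUAUuguuuauuua

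Spleen libraries held 39138010 to 45167464 counts. Globin genes took 4.17% to 7.52% of them in wild-type spleens and 3.92% to 6.67% in L2-fKO spleens. L2-fKO spleens 3 and 4 stood apart. L2-fKO spleen 4 had the lowest value of the 8 spleens for 25 of the 39 tested genes, and L2-fKO spleen 3 had the highest value for 25 of them. Wild-type spleen 3 was low in globins, at 4.17% of counts, and had the lowest value of the 8 spleens for *Hbb-bt*, *Tmcc2* and *Tfrc*. In a bulk sample, fewer erythroid cells and less RNA per cell cannot be told apart.

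Most erythroid genes did not pass the test in L2-fKO spleens, and those that did lay in both directions, *Car1* lower and 3 late genes higher. With L2-fKO compared with wild type by edgeR's quasi-likelihood test, *Car1* was the only member that passed both limits, an adjusted p under 0.05 together with a log2 fold change beyond 1 in size, and it was lower. Across all 16911 genes tested, 3.11% were called lower and 2.9% higher by these limits, and no member was called higher. At the adjusted p alone, *Fech*, *Epb41* and *Trim10* were higher and *Car1* lower, against 6.89% of all genes higher and 6.51% lower; 35 of the 39 did not pass. The log2 fold changes of the 39 ran from -2.06 to 0.87 with a median of 0.17, beside a median of -0.02 over all genes tested. The CPM values of 8 members are shown by library in the plot of named genes, and every member in the heat map.

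**Figure D1:**
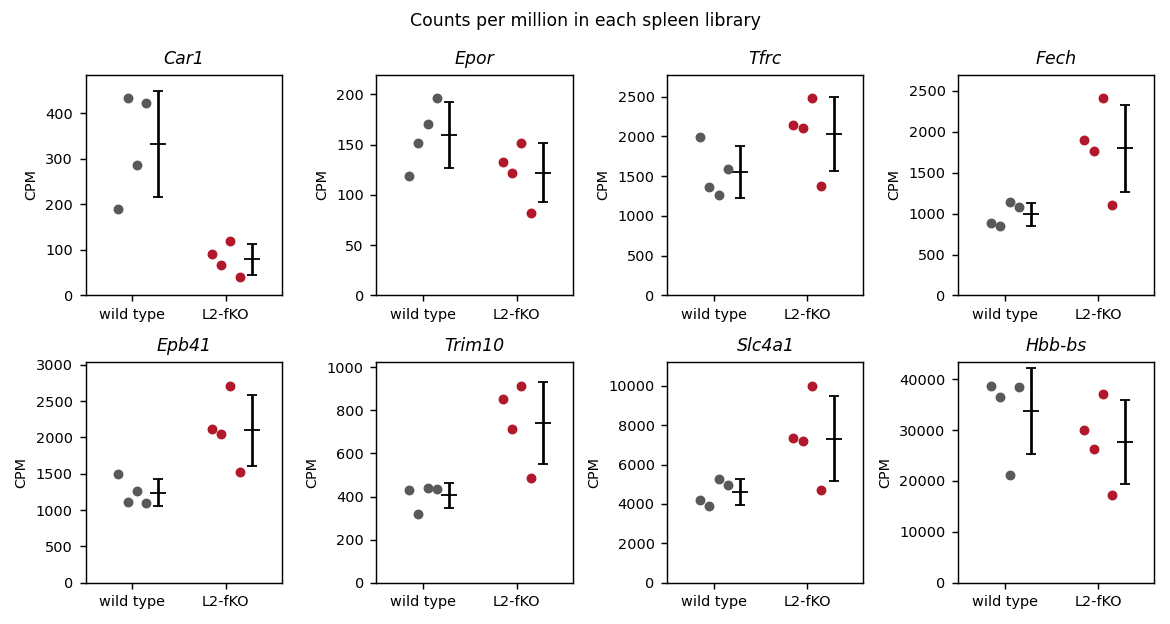
Read level in CPM (linear axis from 0) of *Car1*, *Epor*, *Tfrc*, *Fech*, *Epb41*, *Trim10*, *Slc4a1* and *Hbb-bs* in 4 wild-type (grey) and 4 L2-fKO (red) spleens, 1 point per library, with the mean and SD beside them. *Car1* lies between 40.2 and 120 CPM in L2-fKO and between 189 and 433 CPM in wild-type spleens, while *Hbb-bs* overlaps between the groups.

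*Car1*, carbonic anhydrase 1, is a cytosolic enzyme that the early erythroid progenitors already express (chr3:14766216-14808368, minus strand, GRCm38). It was at 189, 433, 286 and 421 CPM in wild-type spleens 1 to 4 and at 91.2, 66.7, 120 and 40.2 CPM in L2-fKO spleens 1 to 4. Each L2-fKO spleen lay below each wild-type spleen, with means of 332 ± 117 CPM (SD, n = 4) and 79.4 ± 33.9 CPM (SD, n = 4). The log2 fold change was -2.06 (SE 0.36, edgeR adjusted p = 0.00552), a 4.18-fold lower level. With any 1 library left out it was -2.33 to -1.84 with an adjusted p of 0.00367 to 0.022, and in the male libraries alone it was -2.69 (adjusted p = 0.00399).

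The other early genes did not pass the test. *Epor*, the erythropoietin receptor, was at 119, 152, 171 and 196 CPM in wild-type and 133, 122, 151 and 82.1 CPM in L2-fKO spleens, with overlapping groups (log2 fold change -0.39, SE 0.20, edgeR adjusted p = 0.242, and -0.23 without L2-fKO spleen 4). *Tfrc*, the transferrin receptor that brings iron into the cell, was at 1992, 1360, 1259 and 1589 CPM in wild-type spleens. In L2-fKO spleens *Tfrc* was at 2137, 2110, 2479 and 1381 CPM, and the groups overlapped (log2 fold change 0.39, SE 0.21, edgeR adjusted p = 0.259). The median log2 fold change of the early genes was -0.39 and that of the 36 tested late genes 0.18, a difference of -0.57. Within each library, the mean log2(CPM + 1) of the early genes minus that of the late genes was -1.04 to -0.78 in wild-type and -1.84 to -1.75 in L2-fKO spleens, with no overlap. With *Car1* left out of the early genes, that difference was -0.79 to -0.58 in wild-type and -1.01 to -0.78 in L2-fKO spleens, and the ranges overlapped. The lack of overlap in this mean difference therefore depended on *Car1*. The early median of -0.39 was the value of *Epor*, and *Epor* and *Tfrc* had opposite signs.

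**Figure D2:**
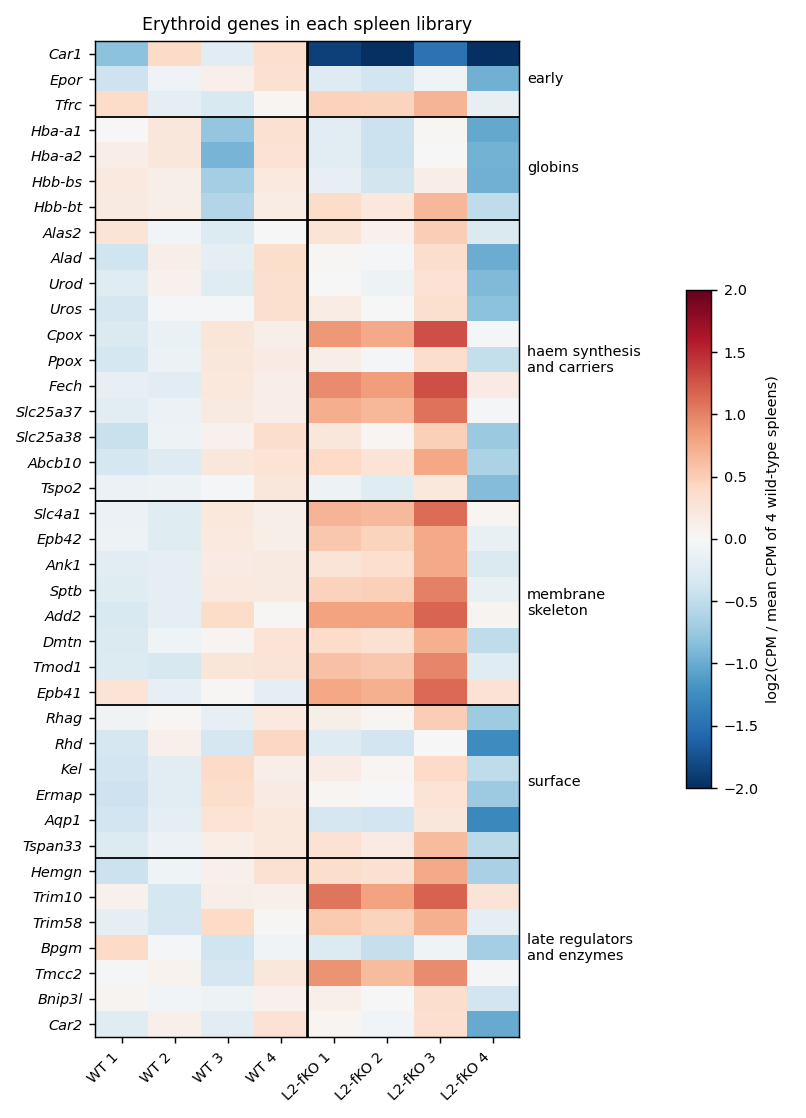
Heat map of the 39 tested erythroid genes (rows, by role) in 8 spleen libraries (columns), colored by log2 of CPM over the mean CPM of the 4 wild-type spleens, from -2 (blue) to 2 (red). *Car1* is blue in all 4 L2-fKO libraries, the membrane skeleton genes are red in L2-fKO spleens 1 to 3, and L2-fKO spleen 4 is the lowest library for 25 genes.

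Among globins, none of the 4 tested genes passed the test. *Hbb-bs*, the adult β-globin with the highest level per length of all members, was at 38741, 36521, 21108 and 38387 CPM in wild-type and 29959.8, 26181, 37103 and 17263 CPM in L2-fKO spleens (log2 fold change -0.29, SE 0.29, edgeR adjusted p = 0.553). The groups overlapped, and wild-type spleen 3 and L2-fKO spleen 4 were the low libraries. The log2 fold change of *Hbb-bs* was -0.46 when wild-type spleen 3 or L2-fKO spleen 3 was left out and -0.12 when L2-fKO spleen 4 was. The α-globins *Hba-a1* and *Hba-a2* had log2 fold changes of -0.37 and -0.36, whereas the second adult β-globin, *Hbb-bt*, had 0.24. Reads of *Hba-a1* and *Hba-a2*, and of *Hbb-bs* and *Hbb-bt*, are uncertain because the copies are nearly identical.

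The pair of adult β-globins differed in its proportion between the genotypes, a comparison chosen after the values were seen. For every 100 reads of *Hbb-bs* there were 22.8, 23.2, 24.6 and 22.5 reads of *Hbb-bt* in wild-type spleens 1 to 4 and 33.4, 34.5, 33.1 and 31.8 in L2-fKO spleens 1 to 4. The groups lay apart, at 23.3 ± 0.906 (SD, n = 4) and 33.2 ± 1.119 (SD, n = 4), and wild-type spleen 3, which was low in globins, kept the wild-type proportion. The α-globin pair overlapped between the genotypes, with 24.9 to 30.3 reads of *Hba-a2* per 100 reads of *Hba-a1* in wild-type and 27.4 to 29.4 in L2-fKO spleens. Such a ratio within a library does not depend on the scaling between libraries, but it does depend on how reads of the 2 copies were assigned.

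**Figure D3:**
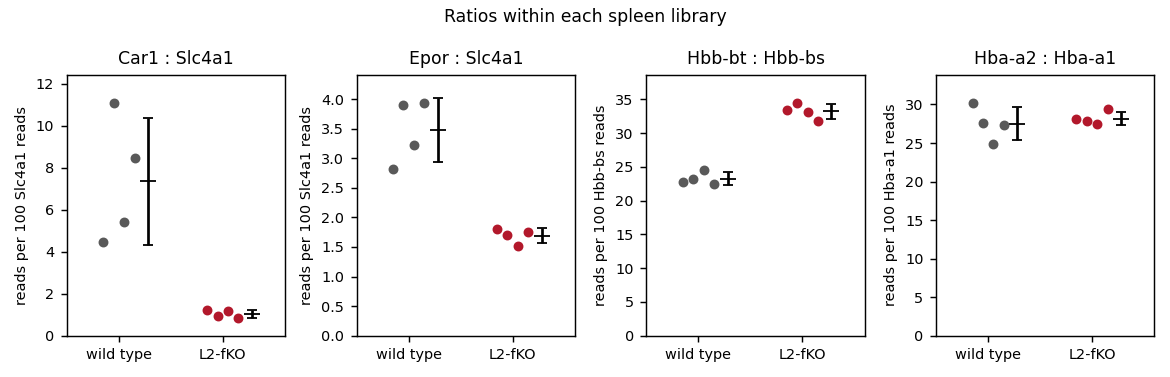
Ratios within each spleen library, in reads per 100 reads of the second gene (linear axes from 0), for 4 wild-type (grey) and 4 L2-fKO (red) spleens with the mean and SD. The ratios of *Car1* to *Slc4a1*, of *Epor* to *Slc4a1* and of *Hbb-bt* to *Hbb-bs* do not overlap between the genotypes, and that of *Hba-a2* to *Hba-a1* does.

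Of the 11 heme synthesis and carrier genes, 1 rose, none fell and 10 did not pass the test, with a median log2 fold change of 0.07. *Fech*, ferrochelatase, was at 884, 853, 1142 and 1082 CPM in wild-type and 1904, 1766, 2411 and 1108 CPM in L2-fKO spleens. L2-fKO spleen 4 lay within the wild-type range and the other L2-fKO spleens above it (log2 fold change 0.86, SE 0.23, edgeR adjusted p = 0.0335). *Alas2*, which makes the first precursor and is the most abundant member of the group per length, was at 2345, 1859.9, 1604 and 1948 CPM in wild-type and 2333, 2067, 2714 and 1596 CPM in L2-fKO spleens, with overlapping groups (log2 fold change 0.17, SE 0.19, adjusted p = 0.602). Leaving out wild-type spleen 3 gave 0.09, L2-fKO spleen 3 gave 0.04 and L2-fKO spleen 4 gave 0.29. *Cpox*, coproporphyrinogen oxidase, and *Slc25a37*, the mitochondrial iron importer mitoferrin 1, had log2 fold changes of 0.80 (adjusted p = 0.0649) and 0.67 (adjusted p = 0.083). Those of the other 7 genes (*Alad*, *Urod*, *Uros*, *Ppox*, *Slc25a38*, *Abcb10* and *Tspo2*) were between -0.20 and 0.29. Of the member enzymes of the pathway, *Alad* (-0.09), *Uros* (-0.03) and *Urod* (-0.11) act in the cytosol. *Alas2* (0.17), *Cpox* (0.80), *Ppox* (0.02) and *Fech* (0.86) act in the mitochondrion. Only *Fech* passed the test, and a difference between the compartments was not tested. For 100 reads of *Alad* there were 140 to 232 reads of *Fech* in wild-type and 323 to 393 in L2-fKO spleens, a ratio chosen after the values were seen.

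All 8 membrane skeleton genes had positive log2 fold changes, from 0.28 to 0.76 with a median of 0.52, and 1 of them passed the test. *Epb41*, the skeleton protein that ties spectrin to actin, was at 1498, 1111, 1262 and 1093 CPM in wild-type and 2119, 2042, 2715 and 1523 CPM in L2-fKO spleens. Every L2-fKO spleen was above every wild-type spleen (log2 fold change 0.76, SE 0.19, edgeR adjusted p = 0.03). *Slc4a1*, the band 3 anion exchanger and anchor of the skeleton, was the most abundant of the group per length, at 4219, 3893, 5291 and 4977 CPM in wild-type and 7369, 7195, 10013 and 4697 CPM in L2-fKO spleens. Only L2-fKO spleen 4 was inside the wild-type range (log2 fold change 0.67, SE 0.23, adjusted p = 0.0867). *Add2*, β-adducin, followed with 0.76 (adjusted p = 0.0599), and *Epb42*, *Ank1*, *Sptb*, *Dmtn* and *Tmod1* with 0.28 to 0.53 (adjusted p of 0.162 or above). Over all genes tested, 47.8% had a positive log2 fold change.

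None of the 6 tested surface genes passed the test, and their log2 fold changes were -0.40 to 0.19 with a median of -0.01. *Aqp1*, the water channel that carries the Colton antigen, was the most abundant of them per length, at 1149, 1309, 1799 and 1725 CPM in wild-type and 1184, 1141, 1755 and 609.8 CPM in L2-fKO spleens, and the groups overlapped (log2 fold change -0.35, SE 0.29, edgeR adjusted p = 0.456). It was -0.61 without L2-fKO spleen 3 and -0.14 without L2-fKO spleen 4. *Rhd*, the Rh antigen gene, had -0.40 and its partner *Rhag* 0.04, and *Kel*, *Ermap* and *Tspan33* were between -0.06 and 0.19.

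Among the 7 late regulators and enzymes 1 rose, none fell and 6 did not pass the test. *Trim10*, a tripartite motif protein of terminal erythroid cells, was at 430, 319, 440 and 436 CPM in wild-type and 853, 713, 916 and 487 CPM in L2-fKO spleens. All L2-fKO spleens lay above all wild-type spleens (log2 fold change 0.87, SE 0.20, edgeR adjusted p = 0.0208). *Car2*, carbonic anhydrase 2 and the most abundant of the group per length, was at 2963, 3778, 3028 and 4288 CPM in wild-type and 3597, 3392, 4431 and 1754 CPM in L2-fKO spleens, with overlapping groups (log2 fold change -0.09, SE 0.27, adjusted p = 0.852). The sign of *Car2* turned without L2-fKO spleen 4, at 0.12, while leaving out wild-type spleen 3 gave -0.16 and L2-fKO spleen 3 gave -0.27. *Tmcc2*, a transmembrane coiled-coil protein, was at 1382, 1482, 1118 and 1651 CPM in wild-type and 2614, 2181, 2708 and 1382 CPM in L2-fKO spleens (log2 fold change 0.66, SE 0.22, adjusted p = 0.0802). *Bpgm*, *Hemgn*, *Trim58* and *Bnip3l* were between -0.36 and 0.41.

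The calls of *Fech*, *Epb41* and *Trim10* depended on the libraries. None of them passed without wild-type spleen 2, wild-type spleen 4, L2-fKO spleen 1 or L2-fKO spleen 2, *Trim10* alone passed without L2-fKO spleen 3, and *Fech* was lost without wild-type spleen 1. Without L2-fKO spleen 4, 12 members passed upward, beside 8.95% of all genes in that fit, with *Fech* at 1.03 (adjusted p = 0.00334), *Trim10* at 1.03 (adjusted p = 0.00238) and *Epb41* at 0.89 (adjusted p = 0.00647), and *Slc4a1*, *Epb42*, *Sptb*, *Tmod1*, *Add2*, *Cpox*, *Slc25a37*, *Tmcc2* and *Trim58* at 0.57 to 1.00. The directions of these 3 genes held in each of those fits.

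The groups lay apart for 2 members upward (*Epb41* and *Trim10*) and 1 downward (*Car1*), beside 9.61% and 10.8% of all genes. Because L2-fKO spleen 4 was low in most erythroid genes, the early genes were also read against *Slc4a1* within each library, a comparison chosen after the values were seen and given with no test. For *Epor*, which overlapped in CPM, there were 2.83, 3.901, 3.23 and 3.94 reads per 100 reads of *Slc4a1* in wild-type and 1.81, 1.698, 1.51 and 1.75 in L2-fKO spleens. L2-fKO spleen 4 lay with the other L2-fKO spleens, and all of them were below all wild-type spleens. For *Car1* the same ratio was 4.47 to 11.1 in wild-type and 0.855 to 1.24 in L2-fKO spleens. *Tfrc* overlapped, at 23.8 to 47.2 reads in wild-type and 24.8 to 29.4 in L2-fKO spleens per 100 reads of *Slc4a1*. These ratios move with *Slc4a1* as well as with the early genes.

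All 6 members with the element UAUUUAU, of which 5 have a site shown above, had positive log2 fold changes in the spleen, 0.86 for *Fech*, 0.76 for *Epb41* and *Add2*, 0.67 for *Slc25a37*, 0.66 for *Tmcc2* and 0.39 for *Tfrc*, with a median of 0.71. In the ovary 4 of these 6 were negative (*Tfrc* -0.35, *Fech* -0.09, *Epb41* -0.09 and *Slc25a37* -0.05) and *Tmcc2* (0.47) and *Add2* (1.06) positive. In the spleen the 33 members without the element ran from -2.06 to 0.87 with a median of 0.04, and 19 of them were positive. Over all tested genes with an annotated 3′UTR the medians were 0.05 with and -0.03 without the element. Length moved with the element: the median 3′UTR was 4114 bases in members with it and 680.0 bases in members without. The member with the largest positive change, *Trim10*, holds no element in this 3′UTR, and neither do *Cpox* and *Slc4a1*. *Car1*, the only member that passed the test downward, holds none. A match is a description of the sequence only.

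In the ovary globins took 0.0144% to 0.0245% of reads in wild-type and 0.0307% to 0.0522% in L2-fKO ovaries. With limma on log2(normalized count + 1), no member was called by both limits, beside 0.73% of the 18504 genes higher and 0.227% lower. *Tmcc2* was the only member that passed the adjusted p alone, beside 1.23% of genes higher and 0.351% lower. That count depended on the fit. With a replicate block, or with DESeq2 on recovered reads, 5 members (*Hba-a1* and *Hbb-bs* among them) were higher and 1 lower at the adjusted p alone. The shares of all genes were then 2.22% and 0.692% with the block, and 4.37% and 1.65% with DESeq2. The median log2 fold change over the 35 members was -0.01.

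*Tmcc2*, whose 3′UTR site is shown above, was at 1397, 1363 and 1304 normalized counts in wild-type and 1868, 2060 and 1716 in L2-fKO ovaries. All L2-fKO ovaries lay above all wild-type ovaries, at 1882 ± 172 (SD, n = 3) against 1355 ± 47.1 (SD, n = 3), and the log2 fold change was 0.47 (SE 0.09, limma adjusted p = 0.0493). The call held without L2-fKO ovary 2 and was lost without each of the other ovaries, with adjusted p up to 0.221 and log2 fold changes of 0.40 to 0.53. *Tmcc2* was also higher in the mean in the spleen, at 0.66 with an adjusted p of 0.0802, and the difference between the tissues was 0.20 (SE 0.29, edgeR adjusted p = 0.743).

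The globins were higher in the mean in L2-fKO ovaries. *Hbb-bs* was at 4855, 3309.8 and 5077 normalized counts in wild-type and 10738, 5999.7 and 7647 in L2-fKO ovaries, with no overlap (log2 fold change 0.86, SE 0.23, limma adjusted p = 0.133). *Hba-a1*, at 1264 to 2133 against 3120 to 5272, had 1.18 (adjusted p = 0.0698), *Hbb-bt* 1.28 (adjusted p = 0.14) and *Hba-a2* 0.87 (adjusted p = 0.273). In each of the 4 globins L2-fKO ovary 1 was the highest library, and its spleen, L2-fKO spleen 3, was the highest L2-fKO spleen for the globins. *Alas2* was at 363, 206 and 322 in wild-type and 614, 361 and 600.1 in L2-fKO ovaries, overlapping by 1 library (log2 fold change 0.82, SE 0.27, adjusted p = 0.201). *Slc4a1* was at 232, 17.6 and 107 in wild-type and 199, 54.5 and 74.02 in L2-fKO ovaries (log2 fold change 0.27, SE 0.90, adjusted p = 0.905), and its groups overlapped. Its sign is not settled, since the means were 119 and 109 and the log2 fold change was -0.1 with edgeR and -0.13 with DESeq2 on recovered reads. *Trim10*, *Hemgn*, *Kel* and *Ermap* were at 57.2 normalized counts or below in every ovary. Summed markers of other cells also lay apart between the ovary groups, endothelial at 10511 to 11261 in wild-type and 12620 to 15434 in L2-fKO (*Cdh5* 0.38, limma adjusted p = 0.0423), megakaryocyte and platelet at 224 to 289 and 291 to 338, and pancreatic acinar at 1341 to 1623 and 458 to 645. No other marker passed the test in the ovary, and the part of these cells in the globin values was not tested.

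Groups lay apart for 10 of the 35 members in the ovary, 5 higher and 5 lower, beside 13.2% of all genes higher and 12% lower. Higher were *Hba-a1*, *Hbb-bs*, *Hbb-bt*, *Add2* and *Tmcc2*, and lower were *Epb42*, *Fech*, *Slc25a38*, *Abcb10* and *Tfrc*. *Epb42*, which links band 3 to ankyrin, was at 118, 74.4 and 74.3 in wild-type and 32.2, 34.9 and 20.5 in L2-fKO ovaries, with a log2 fold change of -1.57 (SE 0.31, limma adjusted p = 0.0571). *Add2* went from 419 to 492 in wild-type to 766 to 1489.9 in L2-fKO ovaries, where L2-fKO ovary 2 was the highest (log2 fold change 1.06, SE 0.25, adjusted p = 0.091). *Car1* had no ovary value and was tested neither there nor between the tissues. For the rest of the named members the ovary log2 fold changes were -0.09 for *Fech* and *Epb41*, -0.43 for *Aqp1* and 0.29 for *Trim10*. Those of *Car2*, *Epor* and *Tfrc* were 0.27, -0.07 and -0.35, and all of these had a limma adjusted p of 0.32 or above. With 3 ovaries a group, an exact permutation test cannot give a two-sided p below 0.1.

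**Figure D4:**
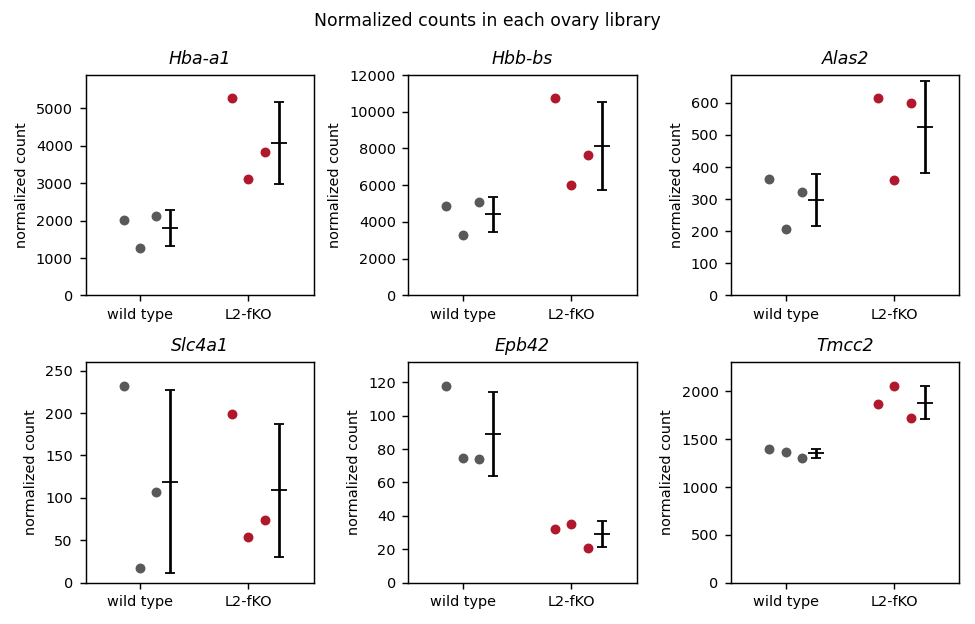
Normalized counts (linear axes from 0) of *Hba-a1*, *Hbb-bs*, *Alas2*, *Slc4a1*, *Epb42* and *Tmcc2* in 3 wild-type (grey) and 3 L2-fKO (red) ovaries, 1 point per library, with the mean and SD. *Hba-a1*, *Hbb-bs* and *Tmcc2* are higher in each L2-fKO ovary, *Epb42* is lower in each, and *Slc4a1* overlaps.

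The change itself differed between the tissues for 3 of the 35 members, by an edgeR test of the genotype by tissue interaction at the adjusted p alone, beside 6.63% of the 15534 genes tested. *Epb42* was higher in the mean in L2-fKO spleens and lower in L2-fKO ovaries, with a spleen minus ovary difference of 2.03 (SE 0.35, adjusted p = 0.00335). This held without any 1 library, at 1.79 to 2.17 with an adjusted p of 0.000552 to 0.0127. *Hba-a1*, lower in the mean in spleen and higher in ovary, differed by -1.53 (SE 0.43, adjusted p = 0.0481), and *Epb41* by 0.87 (SE 0.24, adjusted p = 0.046). Without the animal that gave both tissues, *Hba-a1* and *Epb41* were lost (edgeR adjusted p = 0.0813 and 0.0626). With single libraries left out, *Hba-a1* passed only without wild-type spleen 3, L2-fKO spleen 3 or L2-fKO spleen 4 (-1.73 to -1.3 over all 14 omissions), and *Epb41* only without wild-type spleen 1, wild-type spleen 3 or L2-fKO spleen 4 (0.71 to 0.97). *Fech*, 0.86 in spleen and -0.09 in ovary, differed by 0.98 (SE 0.28, adjusted p = 0.051). Changes in both tissues are set side by side in the plot of log2 fold changes.

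**Figure D5:**
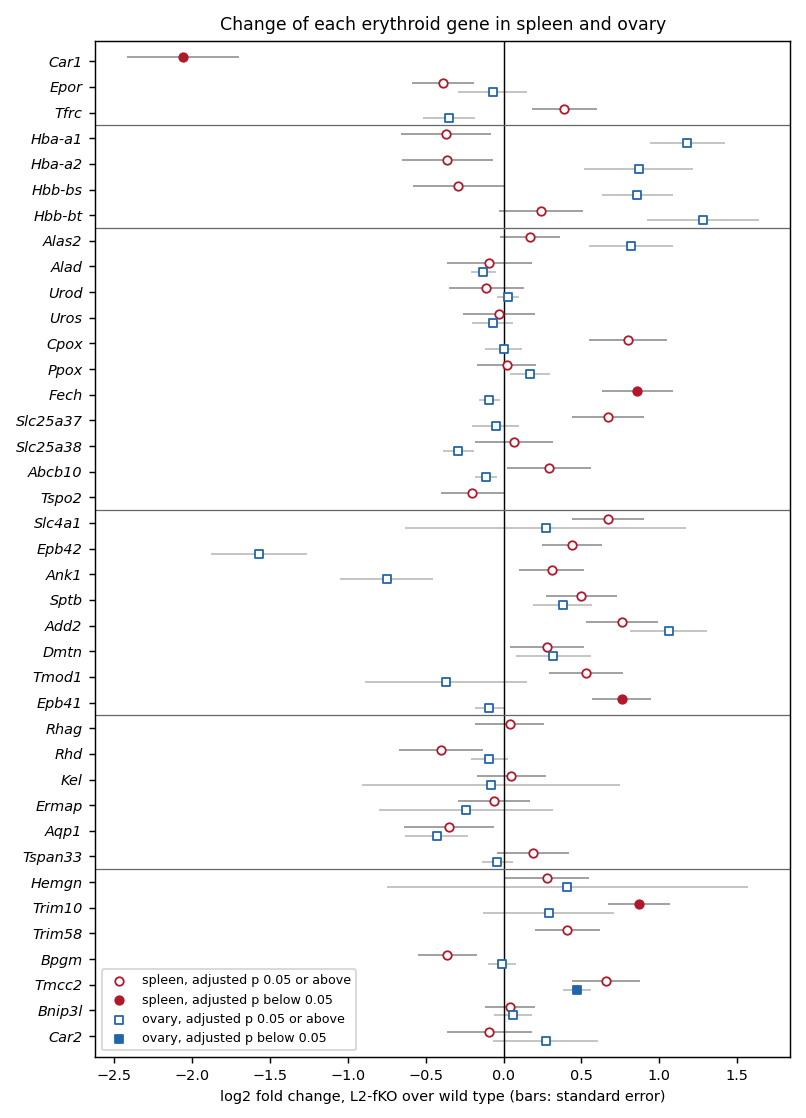
Log2 fold change of L2-fKO over wild type with its standard error for 39 erythroid genes in the spleen (red circles) and 35 in the ovary (blue squares), by role, with filled symbols at an adjusted p below 0.05. *Car1*, *Fech*, *Epb41* and *Trim10* are filled in the spleen and *Tmcc2* in the ovary, and the globins lie right of 0 in the ovary.

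By level per length, in CPM per kb averaged over both genotypes, the adult globins led in the spleen, from 39511 for *Hbb-bs* to 6999.6 for *Hba-a2*. *Car2* (1387), *Slc4a1* (1204), *Alas2* (851) and *Aqp1* (502) followed, and *Trim58* was the lowest tested member at 24.1. *Car1* had 264 in wild-type and 61.9 in L2-fKO spleens, *Tfrc* 251 and 323, and *Epor* 80.03 and 60.4. In the ovary *Hbb-bs* was again the first, at 218, followed by *Hba-a1* at 96.7 and then by *Bpgm* (67.1) and *Bnip3l* (64.9), which many cell types use, *Hbb-bt* (58.1) and *Alad* (36.3).

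Of 33 other erythroid genes, 32 were tested in the spleen, where 2 were called higher and none lower, beside 2.9% and 3.11% of all genes. Both were embryonic β-like globins. *Hbb-bh1* had 18, 20, 13 and 34 counts in wild-type and 161, 112, 166 and 54 counts in L2-fKO spleens (log2 fold change 2.61, SE 0.46, edgeR adjusted p = 0.0059). *Hbb-y* had 13, 15, 24 and 13 counts in wild-type and 68, 69, 48 and 37 in L2-fKO spleens (log2 fold change 1.83, SE 0.35, adjusted p = 0.00886). Every L2-fKO spleen lay above every wild-type spleen for both genes, but at levels of at most 4.17 CPM. *Alas1*, the housekeeping isoenzyme of the first heme step, was the only other gene of these that passed the adjusted p alone (log2 fold change -0.46, SE 0.12, adjusted p = 0.0307). None of the 7 erythroid transcription factors passed, with a median of 0.06. In the ovary 24 of the 33 were tested and none passed by limma.

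Markers of other cells moved with genotype in the spleen. All 6 megakaryocyte and platelet markers were lower, with a summed level of 499 to 1044 CPM in wild-type and 24.5 to 30.6 CPM in L2-fKO spleens. All 7 neutrophil and precursor markers were lower as well, at 2892 to 4697 against 190 to 1078 CPM. Of the red pulp macrophage and endothelial markers, 1 of 5 (*Adgre1*) and 1 of 4 (*Cdh5*) were higher, while none of the 5 B cell, 5 T cell or 5 proliferation markers passed. Summed B cell markers were 288 to 1487 CPM in wild-type and 309 to 792 CPM in L2-fKO spleens, T cell markers 56.4 to 147 and 72.9 to 151, and proliferation markers 2550 to 3768 and 2311 to 4707. Pancreatic acinar markers summed to up to 421 CPM in wild-type spleens, with 0.989 in the lowest library, and to 1.81 or less in L2-fKO spleens, with the 4 tested lower. Granulosa and oocyte markers summed to at most 1.05 CPM in the spleen and to at least 23056 and 49291 normalized counts in the ovary. The part of these cell types in the values of the erythroid genes was not tested.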

How the data were processed

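Spleen values are whole-number gene counts as the authors deposited them, and ovary values are counts divided by size factors (unit signal), deposited by the authors with DESeq2. Reads were trimmed (Trimmomatic 0.36), aligned to GRCm38 (STAR 2.5.2b) and counted per gene (Subread 1.5.2, featureCounts), per the labels and the study's methods. The authors' columns of fold changes and p-values were not used. Whole reads were recovered from the ovary values (100% within 0.001 of a read). Spleens were tested with edgeR 4.0.16 (R 4.3.3, TMM, quasi-likelihood, at least 10 counts in 4 of 8 libraries). Ovaries were tested with limma 3.58.1 on log2(value + 1), with at least 10 in 3 of 6 libraries. Fold changes of low genes are less certain and can differ in sign from the means. *Hemgn*, for example, had a log2 fold change of 0.41 though its mean was 14.5 in wild-type and 9.89 in L2-fKO ovaries. The tissues were compared by an edgeR interaction term on spleen counts and recovered ovary reads. P-values were adjusted by Benjamini-Hochberg over all genes and measure the spread between animals. Full values are given for members past the adjusted p in either tissue, for the early genes and for the member with the highest level per length in each role group. At most 4 called genes per further list are named by size of change. Other members named with values, and the ratios, were chosen after their values were seen. The members and lists were chosen with earlier results of these data known. A further scaling of the spleens, tried after the data were seen, is not reported here. The tests were checked on simulated data with larger changes than most reported here and with no library-wide shift of the erythroid genes. That check does not cover small changes or calls that depend on single libraries. DESeq2 1.42.0 and the other alternatives are given in the closing section.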

Additional observations from a re-analysis of the deposited data

Results flagged for a closer look

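Of 78 groups of 4 spleens checked, 1 per member and genotype, 4 held a library far from the other 3, where chance alone gives about 1 in 20. Wild-type spleen 3 was low for *Hbb-bs* (21108 CPM, the others 36521 to 38741), *Hbb-bt* (5185 CPM, the others 8454 to 8844) and *Hba-a2* (2766 CPM, the others 5815 to 6440). Wild-type spleen 2 was low for *Trim10* (319 CPM, the others 430 to 440). The change with genotype differed between spleen and ovary, by the edgeR interaction test, for *Epb42* (2.03), *Hba-a1* (-1.53) and *Epb41* (0.87), each given as the spleen minus the ovary log2 fold change.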

How the results depend on the processing

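*Car1* was called lower in the spleen under every alternative run. The number of members higher in the spleen at the adjusted p alone, 3 as reported, was 8 with DESeq2, 8 with scaling to library totals, 5 with no filter on low counts, 1 in male libraries only and 0 with a replicate block. With 1 library left out it was 0 to 12, those past both limits were 0 to 2, those lower 1 to 1 by either limit, and the early minus late difference was -0.64 to -0.51. The labels gave the number 3 to 2 wild-type spleens, and 1 of them was renumbered here. Spleen numbers may therefore not follow the age-matched pairs of the study. Neither the block nor same-number correlations can then show whether the spleens pair. Same-number correlations were -0.488 to 0.302 in the spleen. In the ovary (0.074 to 0.379, each L2-fKO ovary closest to the wild-type ovary of its number) a replicate block and DESeq2 on recovered reads each gave 2 members higher and 1 lower by both limits, and 5 higher (*Tmcc2*, *Alas2*, *Hbb-bs*, *Add2* and *Hba-a1*) and 1 lower (*Epb42*) at the adjusted p alone. Over ovaries left out these were 0 to 1, 0 to 1, 0 to 3 and 0 to 1. The highest of each came without L2-fKO ovary 2, where 1.55% of all genes were higher and 0.746% lower at the adjusted p alone. Without each of the other ovaries, 0.162% to 0.767% were higher and 0.0216% to 0.292% lower. Members that differed between tissues were 1 without the shared animal, 1 with a replicate block and 1 to 8 over libraries left out. The 8 came without L2-fKO spleen 4, where 5.55% of all genes passed with a positive and 6.58% with a negative difference. Those shares were 3.21% and 3.42% as reported, 2.6% and 2.55% without the shared animal, and 2.15% and 2.37% with the block. *Slc4a1* in the ovary turned to -0.1 with edgeR and -0.13 with DESeq2 on recovered reads. Directions also turned with a library left out for *Car2* in the spleen (-0.27 to 0.12) and, in the ovary, *Slc4a1* (-0.76 to 1.07), *Trim10* (-0.07 to 0.51), *Car2* (-0.02 to 0.54) and *Epor* (-0.19 to 0.07). The cause was not tested. Of all genes, 6.89% were higher at the adjusted p alone in the spleen as reported (1166), 9.96% with DESeq2 (1685), 5.4% with library totals (913), 3.68% with no filter (1288 of 35029), 8.23% in males (1424) and 3.96% with the block (669). In the ovary 1.23% were higher and 0.351% lower, 2.22% and 0.692% with the block, and 4.37% and 1.65% with DESeq2 (810 and 306). By both limits, 187 of 18504 genes were higher and 81 lower with the block, and 286 and 121 of 18547 with DESeq2.

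With 4 spleens or 3 ovaries a group, small changes of most members lie within the spread between animals. *Hemgn*, *Kel*, *Ermap*, *Tmod1* and *Trim10* are limited in the ovary by low counts. *Epb42* was low there too, at 81 to 97 reads in wild-type and 18 to 36 in L2-fKO ovaries. *Slc4a1* had as few as 21 reads, in wild-type ovary 2.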

Other observations

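The proportion of the β-globins was also read in the ovary, after its values in the spleen were seen. For every 100 reads of *Hbb-bs* there were 21.7, 15.6 and 21.9 reads of *Hbb-bt* in wild-type ovaries and 29.8, 29.8 and 20.1 in L2-fKO ovaries, so the groups overlapped through L2-fKO ovary 3.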
